A study of Mus musculus with 10 samples.

Results

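The 7 genes described here were Tlr2, Tlr4, Tlr7, Tlr9 and Tlr13, which encode Toll-like receptors, Cd14, which encodes a co-receptor, and Myd88, which encodes their shared adaptor. They were taken by name from the 32285 genes counted in each library, not by their values. The study measured single-cell gene expression in SW1 mouse melanoma grown subcutaneously in C3H/HeJ mice, and asked what L-fucose (L-fuc), a dietary sugar given in the drinking water, does to the immune cells inside the tumor. There were 5 gene expression libraries, each 1 pool of cells sorted for the leukocyte antigen CD45: 1 from before treatment (pretreatment day 0), a control and an L-fuc library from day 7, and a control and an L-fuc library from day 21. Values given for all 5 follow this order. All mice were C3H/HeJ and aged 4 to 6 weeks, all carried SW1 tumors, and the control mice drank water without L-fuc. The labels gave the L-fuc dose as 100 with different units in different fields, mM in one and nM in the other. They also gave different numbers of mice behind a library: 5 per arm in one field, and 6 per pool, or 3 at day 0, in the other. Each condition had a single pooled library and no replicate, so differences between conditions could not be tested, and every interval covers counting error only.

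Toll-like receptors recognise conserved microbial molecules and products of damaged cells. TLR2 and TLR4 act at the cell surface, TLR2 on bacterial lipoproteins and TLR4 on lipopolysaccharide, which CD14 captures and hands on. TLR7, TLR9 and mouse TLR13 act in endosomes, on single-stranded RNA, on DNA with unmethylated CpG and on bacterial ribosomal RNA. All of these receptors signal through MYD88, which binds their cytoplasmic TIR domains with its own, and the pathway leads to NF-kB and to cytokines such as TNF and IL-12. Macrophages are known for their use of these receptors, and plasmacytoid dendritic cells for TLR7 and TLR9.

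The C3H/HeJ strain is known for a missense mutation in Tlr4 that replaces a conserved proline of the TIR domain and leaves the mice weakly responsive to lipopolysaccharide. The stretch that codes for this position is shown for the 5 receptors and Myd88 because it is where the host strain departs from other mice. Each was read from RefSeq sequence on the GRCm38 build, 5′ to 3′ on the gene's own strand, as 30 bases with the proline codon in capitals. It is the reference sequence and not that of these mice, and the UMI counts hold no information on the allele.
Tlr2: cacaagcgggacttcgttCCGggcaaatgg
Tlr4: cactacagagactttattCCTggtgtagcc
Tlr7: gaagaaagagactggctaCCAggacagcca
Tlr9: gaggaccgagattggctgCCTggccagacg
Tlr13: caccaacgggattttgaaCCAggcattgat
Myd88: tccgaccgtgacgtcctgCCGggcacctgt

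The Tlr2 stretch lies at chr3:83836723-83836752 on the minus strand, in coding exon sequence of exon 3 of 3, and its capitals mark codon 681 of 784. The Tlr4 stretch lies at chr4:66841087-66841116 on the plus strand, in exon 3 of 3, with codon 712 of 835. Those of the endosomal receptors lie at chrX:167305672-167305701 (Tlr7, minus strand, exon 4 of 4, codon 939 of 1053), at chr9:106226236-106226265 (Tlr9, plus strand, exon 2 of 2, codon 915 of 1032) and at chrX:106159263-106159292 (Tlr13, plus strand, exon 3 of 3, codon 875 of 991). The Myd88 stretch lies at chr9:119338041-119338070 on the minus strand, in exon 3 of 6, with codon 200 of 296. Each stretch was found by searching the encoded protein for a motif of Arg-Asp followed by this proline and a glycine. The codons of these residues were thus set by the search in all 6, and only their spelling could differ. The last base of the proline codon varied, and so did the other codons. Shared bases were counted over all 30, the codons set by the search included. Tlr7 and Tlr9 shared 21 of 30 bases, the most of any pair. Tlr2 and Tlr4 shared 17, and Tlr7 and Myd88 shared 12, the fewest. In RefSeq no other gene overlapped any of these 6 genes.

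Each library gave UMIs (unique molecular identifiers, which count captured RNA molecules) per gene and cell barcode. Barcodes with at least 500 genes and at most 10% mitochondrial UMIs were kept, which left 1470, 17897, 9034, 1573 and 1182 barcodes. The libraries held 14439185 to 119047810 UMIs before this filter. Barcodes with at least 10 UMIs of C1qa, C1qb and C1qc together were called macrophages (456, 1772, 2071, 788 and 411). Of the rest, those with a UMI of Ptprc, which encodes CD45, were called other Ptprc-positive (515, 3725, 2646, 204 and 202), and those with a UMI of the melanoma gene Sox10 and none of Ptprc were called tumor (263, 8822, 2876, 473 and 302), although the cells had been sorted for CD45. The gates were not clean, least of all at control day 7. A C1q UMI was present in 1087 of 2876 tumor barcodes of L-fuc day 7, 121 of 473 of control day 21 and 115 of 302 of L-fuc day 21. A Sox10 UMI was present in 551 of 1772 macrophages and 1663 of 3725 other Ptprc-positive barcodes of control day 7, and a C1q UMI in 5980 of its 8822 tumor barcodes, against 10 of 456, 3 of 515 and 16 of 263 at day 0. Day 7 libraries of control and L-fuc shared 222 barcodes, which is 1.24% of the first and 2.457% of the second. Levels are given as CPM, the gene's UMIs per 1000000 UMIs of all genes in that compartment of that library, without scaling by transcript length, so a level is compared here between compartments or libraries and not between genes.

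Among the compartments Tlr2 was highest in macrophages in all 5 libraries. Macrophages held 143.7 CPM at pretreatment day 0, 96.65 at control day 7, 105.5 at L-fuc day 7, 182.9 at control day 21 and 151.6 at L-fuc day 21. The other Ptprc-positive barcodes held 33.66, 9.4, 12.87, 31.96 and 22.52 CPM in the same order, and tumor barcodes 0.22, 1.68, 0.8879, 0.2818 and 0.1362. The day 21 and day 0 macrophages were thus above both day 7 libraries, and every macrophage level was above every level of the other compartments. Within the other Ptprc-positive barcodes, gated neutrophils and, at pretreatment day 0, monocytes held more Tlr2 than macrophages, as given below.

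Of the 3 compartments Cd14 was highest in macrophages in all 5 libraries, but at control day 21 the ratio to the other Ptprc-positive barcodes fell from 1.447 to 0.4885 after thinning. Macrophages held 999.7 CPM at pretreatment day 0, 695.1 at control day 7, 472.7 at L-fuc day 7, 707.5 at control day 21 and 645.3 at L-fuc day 21. The other Ptprc-positive barcodes ranged widely, with 437.6, 68.05, 91.02, 488.8 and 132.3 CPM, and the tumor barcodes held 2.421, 9.25, 6.047, 4.603 and 6.131 CPM. L-fuc day 7 was the lowest of the macrophage levels and pretreatment day 0 the highest. A Cd14 UMI was found in 38.68% of L-fuc day 7 macrophages and in 48.1% to 60.09% of those of the other 4 libraries. After every barcode was thinned to 1000 UMIs the share was 15.51% at L-fuc day 7 and 23.42% to 32.37% in the others, against 28.31% (26.22% to 30.47%) at control day 7, so L-fuc day 7 was lowest on both scales.

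Tlr4 had few UMIs, 64 to 151 in the macrophages of a library, and was the least confined of the 7 genes to macrophages. They held 12.07 CPM at pretreatment day 0, 10.55 at control day 7, 8.122 at L-fuc day 7, 14.93 at control day 21 and 19.54 at L-fuc day 21. The other Ptprc-positive barcodes held 4.891, 4.857, 3.264, 11.69 and 7.32 CPM, and tumor barcodes 3.961, 4.575, 4.079, 4.697 and 2.997 CPM. Tumor barcodes thus held Tlr4 at 2.997 to 4.697 CPM whatever the library, and macrophages were above them each time. In tumor barcodes without any C1q UMI, Tlr4 was at 4.213, 4.587, 3.984, 4.361 and 2.649 CPM, so its level there was about as high without the barcodes that carried C1q RNA.

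The endosomal receptors had few UMIs, and nearly all of these were in macrophages and other Ptprc-positive barcodes. Tlr7 held 15.65, 9.897, 9.144, 15.84 and 15.82 CPM in macrophages and 5.466, 2.559, 4.895, 10.91 and 10.7 CPM in the other Ptprc-positive barcodes, from pretreatment day 0 through control day 7, L-fuc day 7 and control day 21 to L-fuc day 21. Tlr9 held 12.07, 8.733, 10.49, 22.33 and 25.83 CPM in macrophages and at most 3.378 CPM in the other Ptprc-positive barcodes. Tlr13 held 22.63, 23.07, 16.08, 29.47 and 46.5 CPM in macrophages and at most 10.14 CPM in the other Ptprc-positive barcodes. For Tlr9 both day 21 libraries were above all earlier ones, for Tlr13 L-fuc day 21 stood above the rest, and for Tlr7 the 2 day 7 libraries were below the other 3. In tumor barcodes each of the 3 genes was at 0.4519 CPM or less in every library, and none had a UMI in those of pretreatment day 0.

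Myd88 was spread over all 3 compartments. Macrophages held 47.9, 35.44, 39.05, 50.5 and 44.4 CPM, other Ptprc-positive barcodes 34.81, 13.73, 27.68, 42.87 and 23.09, and tumor barcodes 10.78, 8.176, 8.423, 8.642 and 6.676. In tumor barcodes without a C1q UMI it was at 11, 8.634, 8.152, 8.598 and 6.521 CPM. The macrophage levels differed by less than 1.5-fold across the 5 libraries, and the control day 7 level was the lowest in both macrophages and other Ptprc-positive barcodes.

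**Figure D1:**
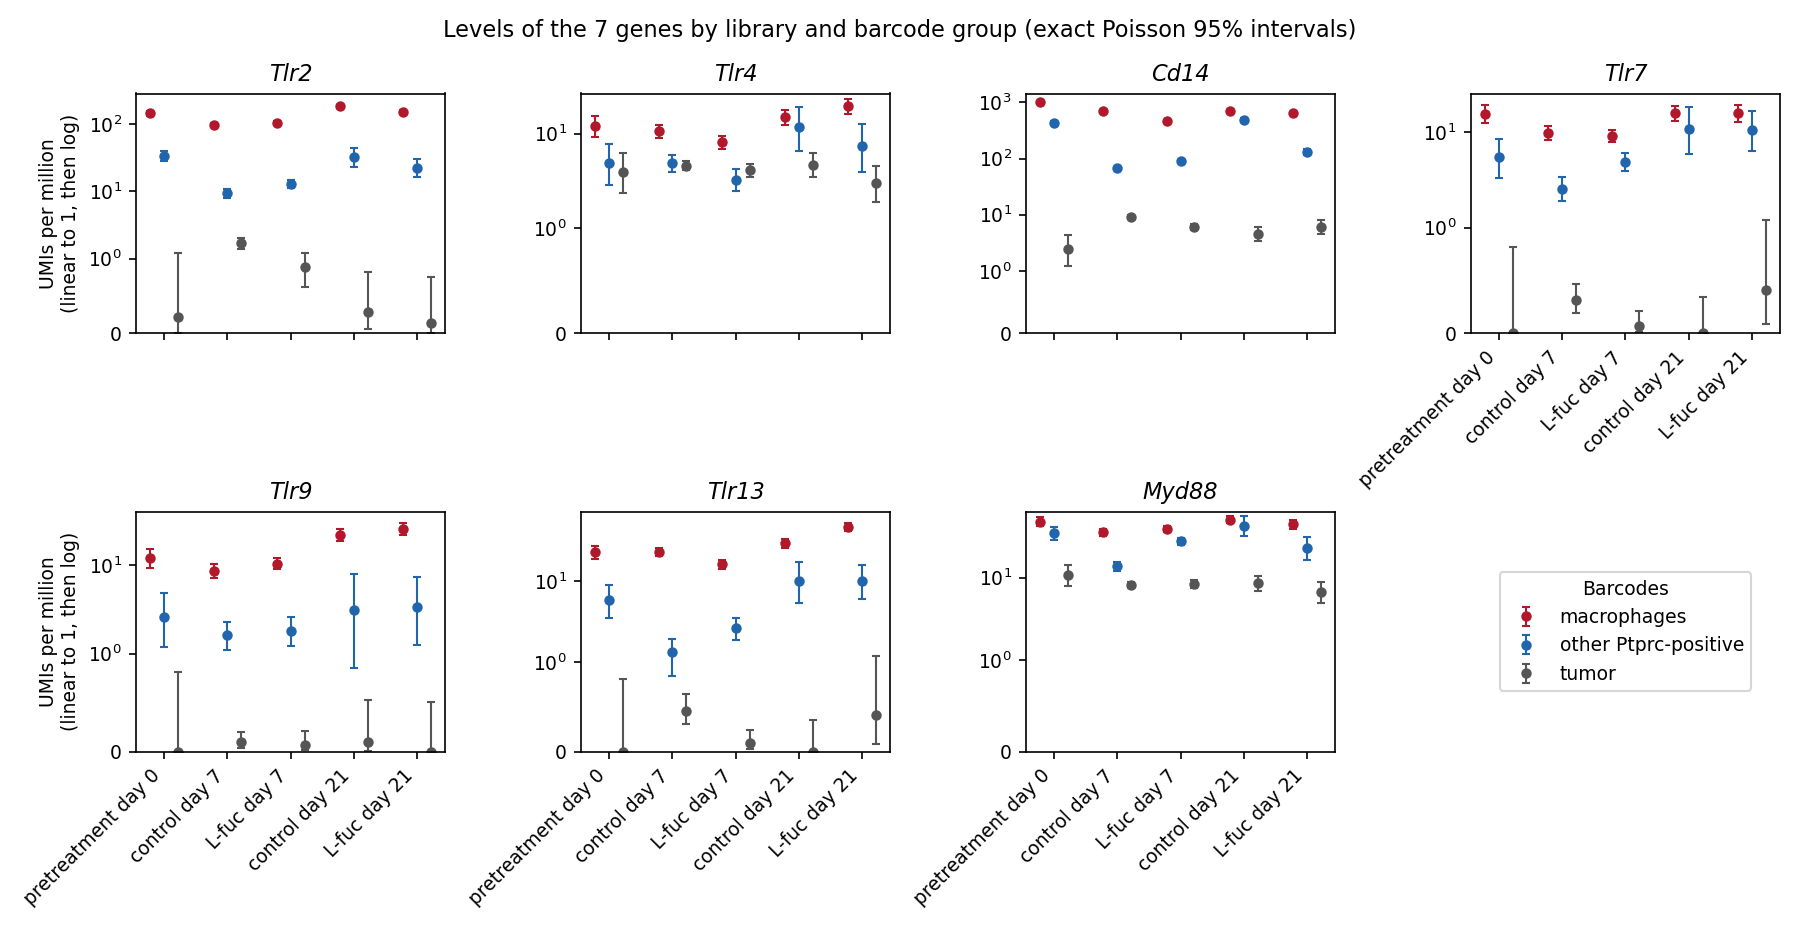
Level of each of the 7 genes, in CPM on a log axis, for each of the 5 libraries in macrophages, other Ptprc-positive barcodes and tumor barcodes, with exact 95% Poisson intervals as bars. Macrophages are highest for Tlr2, with 96.65 to 182.9 CPM against 9.4 to 33.66 in the other Ptprc-positive barcodes, and Tlr4 and Myd88 keep levels of 2.997 to 4.697 and 6.676 to 10.78 CPM in tumor barcodes.

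Of all UMIs of each gene in kept barcodes, macrophages held 87.36% for Tlr2, 87.13% for Tlr9, 85.39% for Tlr13, 81.36% for Cd14 and 72.16% for Tlr7, and 20.82% of the UMIs of all genes. The Myd88 share was 47.08% and the Tlr4 share 39.71%. Tumor barcodes held 38.91% of the Tlr4 UMIs and 24.75% of those of Myd88, against 1.348% to 3.318% for the other 5 genes and 54.55% for all genes. These shares also depend on how many barcodes of each kind a library held and how deep they were, so the levels within a library were compared next.

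Within a library, macrophages were compared with the other Ptprc-positive barcodes, with 1.5-fold and at least 20 UMIs in both groups together as the limit. At pretreatment day 0, 6 of 7 members were at least 1.5-fold higher in macrophages, beside 16.6% of all genes tested. The counts were 7 at control day 7 (12.1% of all genes), 6 at L-fuc day 7 (9.73%), 3 at control day 21 (16.3%) and 6 at L-fuc day 21 (22.5%). Tlr9 was 4.661-, 5.394-, 5.785-, 7.161- and 7.646-fold higher, Tlr2 4.269-, 10.28-, 8.198-, 5.723- and 6.731-fold higher, and Tlr13 3.933-, 17.67-, 6.188-, 2.908- and 4.588-fold higher, so these 3 were past the limit in each library, although the Tlr9 ratio of control day 21 rests on 4 UMIs outside macrophages. Cd14 varied most, from 1.447-fold at control day 21 to 10.21-fold at control day 7. Of the 627 Cd14 UMIs in the other Ptprc-positive barcodes of control day 21, 458 came from 16 neutrophil barcodes. Myd88 was at 1.376, 2.58, 1.411, 1.178 and 1.923, and was the closest to even of the 7 in the pretreatment, L-fuc day 7 and control day 21 libraries.

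Against tumor barcodes, all 7 members were at least 1.5-fold higher in macrophages in each library, beside 19.7% of all genes at pretreatment day 0, 19.9% at control day 7, 21.6% at L-fuc day 7, 18.7% at control day 21 and 19.1% at L-fuc day 21. The size of the difference separated Tlr4 and Myd88 from the other 5. Tlr4 was 3.047-, 2.306-, 1.991-, 3.178- and 6.517-fold higher and Myd88 4.443-, 4.335-, 4.636-, 5.843- and 6.65-fold higher. Cd14 was 75.15- to 413-fold higher. Tlr2 was 57.51-fold (95% interval 47.65 to 69.97) higher at control day 7 and 118.9-fold (85.92 to 169.3) at L-fuc day 7, and in the other 3 libraries, where the tumor barcodes held 1 to 3 of its UMIs, the lower ends of the intervals were 116.9, 221.6 and 199.2. At control day 7 Tlr7 was 31.86-fold (20.21 to 52.52), Tlr13 51.05-fold (35.43 to 75.92) and Tlr9 88.35-fold (41.58 to 224.5) higher. Where tumor barcodes held no UMI, Tlr7 was at least 23.71-fold (pretreatment day 0) and 56.2-fold (control day 21) higher, Tlr9 at least 18.28-fold (pretreatment day 0) and 63.2-fold (L-fuc day 21), and Tlr13 at least 34.28-fold (pretreatment day 0) and 104.6-fold (control day 21), taken against 3 UMIs in the tumor barcodes. Macrophage genes that no gate used (Csf1r, Cd68, Lyz2, Ctss, Tyrobp, Ms4a7 and Adgre1) were 34.6- to 1973-fold higher over the 5 libraries. Fcer1g, a signalling chain of Fc receptors, was only 3.338- to 4.579-fold higher. Within a library, Cd14 was above the range of the former genes at control day 7 (75.15 against 34.58 to 63.06). It was below their range at L-fuc day 7 (78.17 against 91.61 to 177.5). The same held at control day 21 (153.7 against 407.2 to 837.1) and L-fuc day 21 (105.3 against 182.5 to 351.2). Tlr2 was inside the range in both day 7 libraries and at control day 21 (649), and above it at L-fuc day 21 (1113, on 1 tumor UMI).

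**Figure D2:**
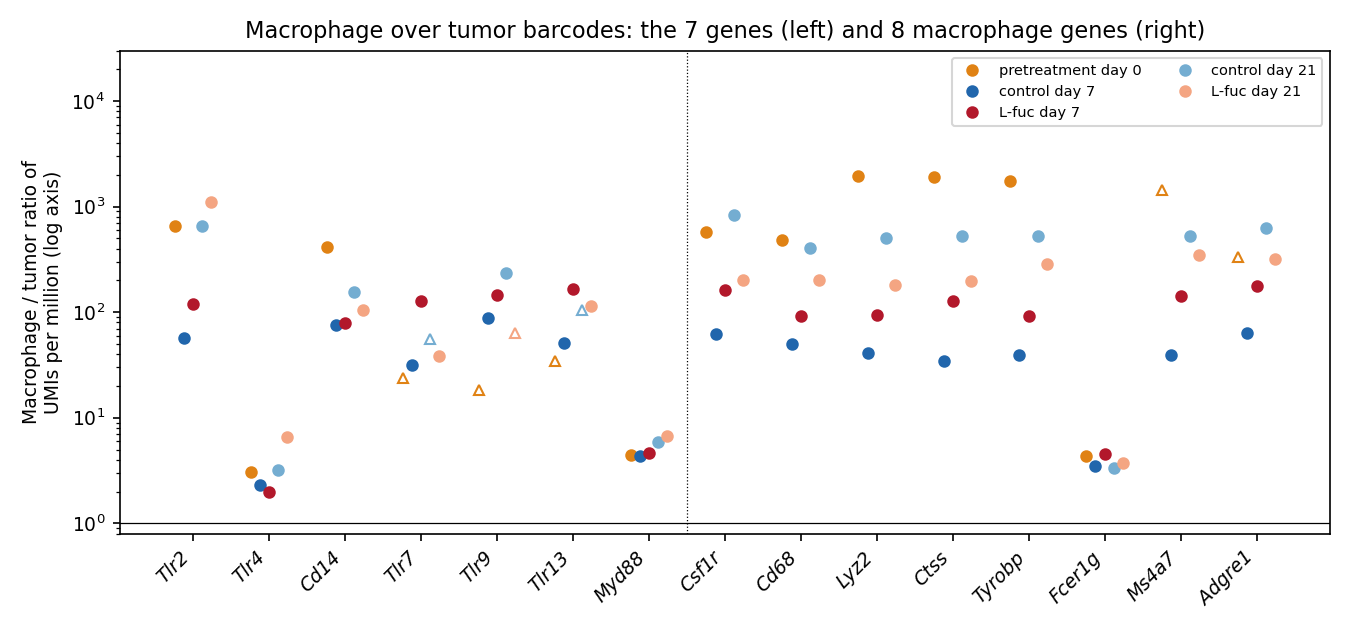
Ratio of the level in macrophages to the level in tumor barcodes of the same library, on a log axis, for the 7 genes and for macrophage genes that no gate used, 1 point per library, with open triangles for a lower bound where the tumor barcodes held no UMI. Tlr4 (1.991 to 6.517) and Myd88 (4.335 to 6.65) lie below the other 5 genes in every library.

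Barcodes of the other Ptprc-positive compartment were then gated by marker UMIs and summed over the 5 libraries. Neutrophils (74 barcodes) held the highest Cd14 and Tlr13 levels of any class, macrophages included, at 3260 and 59.27 CPM (95% interval 33.17 to 97.75), against 642.1 and 24.28 CPM in macrophages. Their Tlr2 level was the highest of any class too, at 193.6 CPM (143.2 to 256) against 124.2 in macrophages, and Myd88 was at 90.87. In L-fuc day 7, the library with most of them (40), their Cd14 level was 1919 against 472.7 CPM in macrophages. Their Tlr2 level there was 252.5 against 105.5 CPM. Monocytes (168 barcodes) held more Tlr7 than macrophages in each of the 3 libraries with at least 20 of them, at 28.55 against 15.65 CPM at pretreatment day 0, 32.65 against 9.897 at control day 7 and 27.75 against 9.144 at L-fuc day 7. The monocytes gave only 7, 7 and 14 Tlr7 UMIs in these libraries. Their Tlr2 level lay on both sides of that of macrophages, at 240.7 against 143.7, 46.65 against 96.65 and 83.26 against 105.5 CPM in the same 3 libraries. Cd14 was at 2643 against 999.7, 802.4 against 695.1 and 551.1 against 472.7 CPM, higher in monocytes each time and most so at pretreatment day 0.

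Plasmacytoid dendritic cells (105 barcodes) stood apart by the endosomal receptors. Tlr7 was at 62.53 CPM (44.25 to 85.82) and Tlr9 at 24.68 CPM (13.81 to 40.71), the highest of any class for both. The Tlr9 interval, however, reaches that of macrophages (12.8 to 14.85). Tlr13 had no UMI, which allows up to 6.07 CPM, and Tlr2 was at 14.81 CPM. A Tlr7 UMI was found in 29.52% of these barcodes and in 0.7867% of T cells, and a Tlr9 UMI in 13.33% and 0.3239%, at median depths of 4068 and 4040 UMIs. The difference between these 2 classes was thus seen at a like median depth. Other dendritic cells (64 barcodes) held Myd88 at 105.3 CPM (77.9 to 139.2) over all libraries. In L-fuc day 7, where they numbered 20, they held 66.47 CPM, beside 78.59 in mast cells and basophils, 70.57 in plasmacytoid dendritic cells and 67.33 in neutrophils, so no class led for Myd88 there. Over all libraries these dendritic cells had Tlr2 at 36.53 and Tlr7 at 8.595 CPM.

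Among lymphocytes, summed over the libraries, B cells held Tlr7 at 9.86 CPM on 20 UMIs against 11.82 in macrophages, and T and NK cells were far below. In the libraries with at least 20 B cells it was 6.708 against 15.65 CPM at pretreatment day 0 (on 3 UMIs). At L-fuc day 21 it was 13.17 against 15.82 CPM (on 11 UMIs). A C1q UMI was present in 29.63% of B cell barcodes. B cells (162 barcodes) had Tlr7 at 9.86 CPM (6.023 to 15.23), Tlr4 at 6.902 (3.773 to 11.58) and Tlr9 at 2.465. They had no Tlr13 UMI, which allows up to 1.819 CPM. T cells (2161) had Tlr7 at 1.301, Tlr9 at 0.5359 and Tlr13 at 0.9187 CPM, and NK cells (729) Tlr7 at 0.9311 CPM. Mast cells and basophils (53) had no UMI of Tlr2, Tlr7 or Tlr9, which allows up to 9.899 CPM of each. Myd88 was present in all of these, at 26.11 CPM in T cells, 26.69 in NK cells, 13.31 in B cells and 67.09 in mast cells and basophils. Tlr2 in T cells (8.115 CPM) and Cd14 in T cells (83.07 CPM) have to be read beside the C1q UMIs in 56.83% of T cell barcodes, and the part of such RNA in them was not tested. A gate for mature dendritic cells took 522 barcodes of which 464 held Sox10, so its label went against its genes and no level is given for it.

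**Figure D3:**
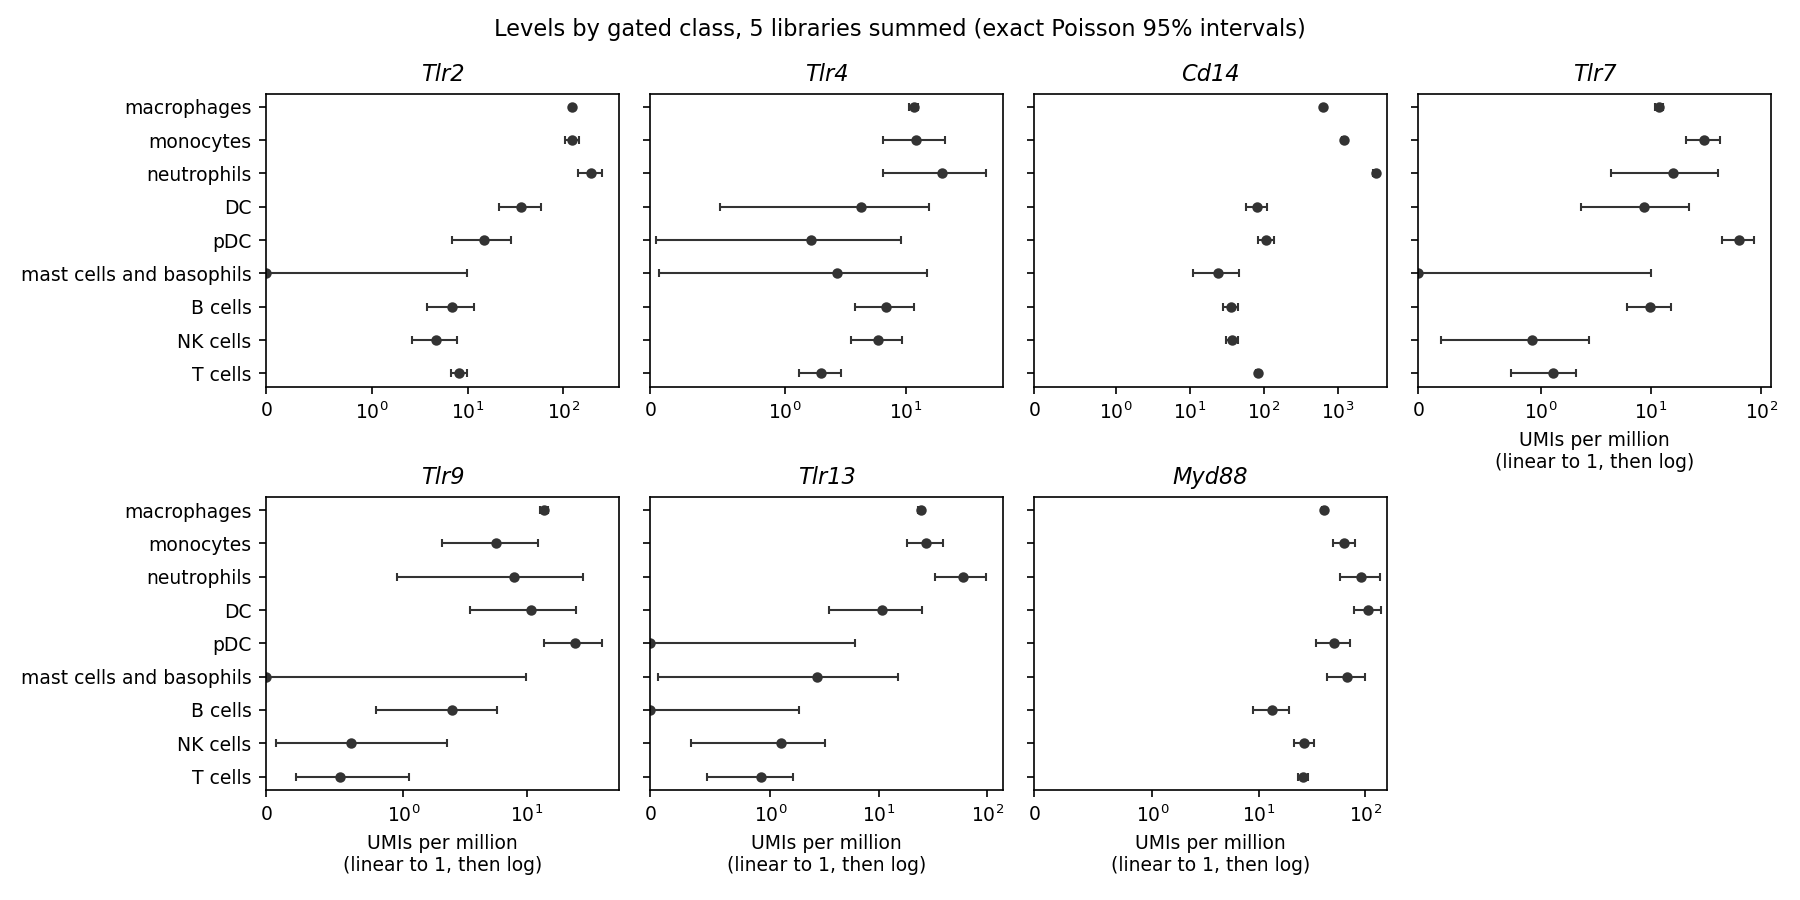
Level of each of the 7 genes in gated classes of barcodes, summed over the 5 libraries, in CPM on a log axis with exact 95% Poisson intervals. Plasmacytoid dendritic cells are highest for Tlr7 (62.53 CPM) and Tlr9 (24.68 CPM), and neutrophils for Cd14 (3260 CPM), Tlr2 (193.6 CPM) and Tlr13 (59.27 CPM). The sums mix libraries with different shares of each class.

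At day 7 no member was 1.5-fold apart between L-fuc and control macrophages, beside 21.6% of all genes tested (6.70% higher and 14.9% lower), and the median log2 ratio was -0.11 over the members and -0.14 over all genes. The ratios of L-fuc to control were below 1 for 4 members. Cd14 was at 0.68 (95% interval 0.6605 to 0.7001), Tlr13 at 0.6971 (0.5932 to 0.819), Tlr4 at 0.7697 (0.6087 to 0.9734) and Tlr7 at 0.9238 (0.733 to 1.166). Tlr2 was at 1.092 (1.018 to 1.172), Myd88 at 1.102 (0.9809 to 1.238) and Tlr9 at 1.201 (0.9518 to 1.521). Cd14 and Tlr13 were thus near the lower limit of 1.5-fold, and Cd14, Tlr13 and Tlr4 passed it after macrophages with Sox10 or Cd3 UMIs were left out (0.6032, 0.6636 and 0.6464) and after thinning to 1000 UMIs (0.5122, 0.3841 and 0.4106). How many of all genes passed it in these settings was not computed.

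Other genes of the same macrophages differed beside Cd14. The 6 macrophage genes used to check the gate, all detected in each library, summed to 9337 CPM at control day 7 and 5424 at L-fuc day 7, and lay between 9881 and 12119 in the other 3 libraries. Of these, Apoe, a lipid carrier, was at 6073 and 2945 CPM, Lyz2, lysozyme, at 1780 and 1160, and Csf1r, the macrophage growth factor receptor, at 180 and 172. Hemoglobin genes were at 691.6 CPM in control and 3849 in L-fuc day 7 macrophages, NK cell genes at 123.3 and 583.7 (all 3 detected in both), T cell genes at 243.8 and 448.7 (3 of 3), and tumor genes at 1180 and 596.3 (6 of 7, the defining gene Sox10 among them). The part of these in the Cd14, Tlr13 and Tlr4 ratios was not tested.

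At day 21 1 member was past the limit in macrophages, beside 10.5% of all genes tested that were at least 1.5-fold higher and 14.5% in either direction. Tlr13 was at 46.5 CPM in L-fuc and 29.47 in control, a ratio of 1.578 (1.321 to 1.886). Tlr4 followed at 1.309 (1.005 to 1.704), Tlr9 at 1.157 and Tlr7 at 0.9991. Cd14 was at 0.9122 (0.8755 to 0.9503), Myd88 at 0.8793 (0.7507 to 1.029) and Tlr2 at 0.8289 (0.7624 to 0.9009). The median log2 ratio was -0.0013 over the members and 0.01 over all genes, so the members as a group lay where all genes lay.

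**Figure D4:**
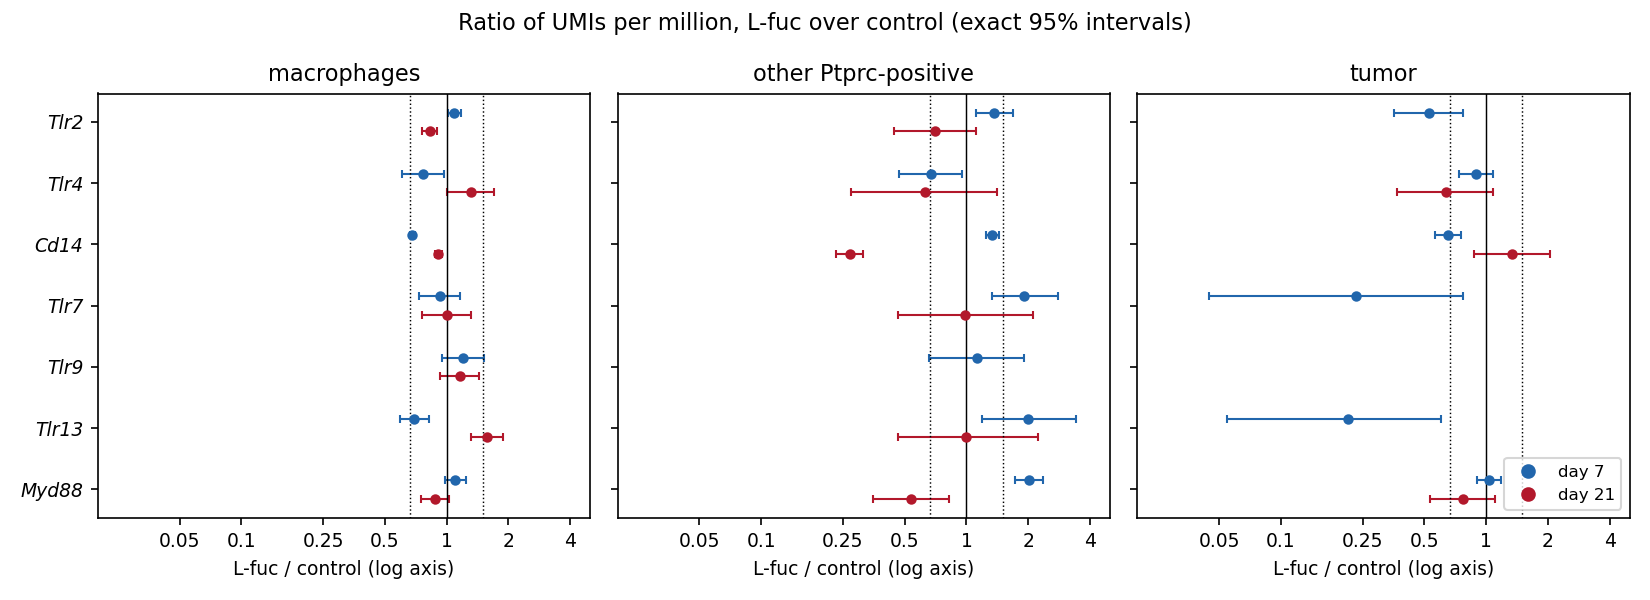
Ratio of L-fuc to control levels at day 7 and day 21 in macrophages, other Ptprc-positive barcodes and tumor barcodes, on a log axis, with exact 95% intervals and dotted lines at 1.5-fold in each direction; members with too few UMIs are left out. In macrophages only Tlr13 at day 21 (1.578) is past a dotted line.

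In the other Ptprc-positive barcodes at day 7, 3 members were at least 1.5-fold higher in L-fuc, beside 16.3% of all genes tested: Myd88 at 2.015 (1.728 to 2.354), Tlr13 at 1.991 (1.189 to 3.401) and Tlr7 at 1.913 (1.326 to 2.786). The control library held more Sox10-positive barcodes in this compartment, 1663 of 3725 against 497 of 2646. Without them Myd88 was at 1.463 (1.203 to 1.786), Tlr13 at 1.454 and Tlr7 at 1.101, none past the limit, and Tlr4 at 0.3963 (0.2381 to 0.6514) and Tlr9 at 0.5479 (0.2866 to 1.045) were past it in the other direction, beside 30.0% of all genes then lower. Cd14 was at 1.338 with these barcodes and at 0.7937 (0.73 to 0.8632) without them. Within T cells the Myd88 ratio was 1.431 (1.09 to 1.896) and that of Cd14 0.5588, and within NK cells 1.725 (1.003 to 3.129) and 0.3971. Myd88 lay above 1 with its whole interval in all 4 of these groupings, which overlap and come from the same pair of libraries. In the barcodes that passed no class gate (667 in L-fuc and 2203 in control) Myd88 was at 1.38 (0.8775 to 2.116), which spans 1. Cd14 was higher in L-fuc there, at 2.52 (2.167 to 2.928). A Sox10 UMI was present in 27.74% of these barcodes in L-fuc and 45.17% in control. In the Sox10-positive barcodes of the compartment Cd14 was at 1.064 (0.8811 to 1.282). Tlr7, Tlr9 and Tlr13 had at most 3 UMIs per library in NK cells, too few for an interval to clear 1. The share of all genes past the limit was not computed for T cells, NK cells, barcodes without a class or Sox10-positive barcodes.

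At day 21, 3 members were at least 1.5-fold lower in the other Ptprc-positive barcodes of L-fuc, beside 28.7% of all genes tested. They were Cd14 at 0.2707 (0.232 to 0.315), Myd88 at 0.5385 (0.3503 to 0.8217) and Tlr4 at 0.626 (0.2741 to 1.41), whose interval spans 1. Neutrophil barcodes gave 458 of 627 Cd14 UMIs in control and 39 of 235 in L-fuc, from 16 and 6 barcodes. The compartment held 204 and 202 barcodes, and the parts of cell makeup and of Cd14 per cell in the Cd14 ratio were not tested.

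In tumor barcodes at day 7, 4 members were at least 1.5-fold lower in L-fuc, beside 8.97% of all genes tested. Tlr2 was at 0.5283 (0.355 to 0.7699), Cd14 at 0.6538, Tlr7 at 0.2317 and Tlr13 at 0.2124, whereas Tlr4 was at 0.8916 and Myd88 at 1.03. C1q genes in the same barcodes were at 160.2 CPM in control and 51.66 in L-fuc. In barcodes without a C1q UMI the Tlr2 ratio was 0.2344 (0.3689 CPM in L-fuc and 1.574 in control, on 10 and 35 UMIs) and that of Cd14 0.6514. The part of macrophage RNA in these ratios was not tested. After thinning to 1000 UMIs Cd14 was at 1.126, with a UMI left in 31 L-fuc and 86 control barcodes. Tlr7 and Tlr13 were then both near even, at 1.027. A Tlr7 UMI was left in 2 L-fuc and 6 control barcodes, and a Tlr13 UMI in 1 and 3, too few to give a direction. At day 21 Tlr4 was past the limit, at 0.6382 (0.368 to 1.073) beside 4.26% of all genes lower, with an interval that spans 1; Cd14 was at 1.332 and Myd88 at 0.7725, and the other 4 genes had fewer than 20 UMIs.

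Over time without L-fuc, control day 7 macrophages were below pretreatment day 0 for 6 of 7 members, while the median log2 ratio of all genes was 0.39. Tlr7 was past the limit, at 0.6323 (0.4777 to 0.8411), beside 7.39% of all genes lower. Of the rest, Tlr2 was at 0.6725, Cd14 at 0.6953, Tlr9 at 0.7236, Myd88 at 0.7399, Tlr4 at 0.8743 and Tlr13 at 1.019. Without macrophages that held Sox10 or Cd3 UMIs, no member was past the limit. Control day 7 and pretreatment day 0 then held Cd14 at 1062 and 1087 CPM, Tlr2 at 141.6 and 161, and Tlr7 at 13.31 and 14.66. Myd88 was then at 40.15 and 47.59, Tlr4 at 15.37 and 14.4, Tlr9 at 13.54 and 12.6, and Tlr13 at 37.17 and 27.01. From control day 7 to control day 21, 3 members were at least 1.5-fold higher, Tlr9 at 2.557, Tlr2 at 1.892 and Tlr7 at 1.6, beside 10.4% of all genes higher and a median log2 ratio of all genes of -0.23. Divided by the median ratio of all genes, 6 members were past the limit in the first comparison and 5 in the second. As a mean over barcodes, however, 2 members were at least 1.5-fold higher in the first and none lower. The share of all genes past the limit was not computed for these settings, so these counts cannot be set against all genes. Myd88 was at 1.425 in the second, Tlr4 at 1.415, Tlr13 at 1.277 and Cd14 at 1.018. Without macrophages that held Sox10 or Cd3 UMIs, 1 member was past the limit in the second. Control day 21 then held Tlr9 at 23.43, Tlr2 at 185.9 and Tlr7 at 15.57 CPM. Both comparisons and the L-fuc comparison at day 7 use the same control day 7 library, so their directions are not independent.

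Macrophages were not uniform for these genes. The 10% of macrophages with the most Cd14 held 59.29% of its UMIs at pretreatment day 0, 61.43% at control day 7, 77.21% at L-fuc day 7, 62.86% at control day 21 and 53.87% at L-fuc day 21, with up to 201 UMIs in 1 barcode. For Tlr2 the shares were 51.31%, 51.13%, 61.93%, 40.88% and 26.62%, so the share was largest at L-fuc day 7 for both. Barcodes were ranked by the gene's own level, so a share above 10% also arises from counting few UMIs per barcode. The part of counting in these shares was not tested.

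To see which macrophages held the members, those of at least 1000 UMIs were split by a UMI of Il1a (an inflammatory cytokine), of Cx3cr1 (the fractalkine receptor) or of Arg1 (arginase), which were chosen after these values had been seen. Cd14 was higher with Il1a than without, 3.211-, 3.656-, 6.136-, 3.213- and 1.559-fold from pretreatment day 0 to L-fuc day 21. Tlr2 was 1.152- to 3.263-fold and Tlr7 1.474- to 2.154-fold higher with Il1a. With Cx3cr1, Tlr2 was 1.845- to 2.88-fold, Tlr9 1.189- to 4.079-fold and Tlr13 1.276- to 3.09-fold higher, while Cd14 lay between 0.8502 and 1.243. With Arg1, Cd14 was 1.367- to 1.967-fold higher and Tlr9 lower, at 0.2805 to 0.656. Cd14 was thus higher with Il1a and with Arg1 in each library, and Tlr2 with Cx3cr1. The ratios with Cx3cr1 of Tlr9 at control day 21 (0.8239 to 1.754) and of Tlr13 at L-fuc day 21 (0.9253 to 1.795) had intervals that span 1. Split by Mki67, a proliferation gene, no member lay on the same side of 1 in all 5 libraries, with Cd14 at 0.6224 to 1.038 and Tlr2 at 0.8785 to 1.355. Barcodes with a UMI of the splitting gene were also the deeper ones, with medians of 9547 UMIs with Il1a and 5556 without in control day 7, and the part of depth in these ratios was not tested.

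The day 7 ratio of Cd14 was nearer to even in macrophages with Il1a than in those without, a difference that was not tested. Macrophages with Il1a held 1450 CPM of Cd14 in L-fuc and 1555 in control, a ratio of 0.9328 (0.8974 to 0.9696), and those without Il1a 236.4 and 425.3 CPM, a ratio of 0.5557 (0.5316 to 0.581). Macrophages with Il1a were 11.84% of those in L-fuc and 17.12% in control. The Tlr2 ratio was 1.553 with Il1a and 0.931 without. At day 21 the Cd14 ratio was instead farther from even with Il1a, at 0.589 (0.5565 to 0.6234), than without, at 1.214 (1.143 to 1.289). The Tlr2 ratio was then 0.6246 with Il1a and 0.9444 without. The day 21 ratio of Tlr13 was above 1 in every subset, 1.265 with and 1.746 without Il1a, 1.458 with and 2.06 without Cx3cr1, and 1.785 with and 1.557 without Arg1. The interval with Il1a (0.9403 to 1.71) spans 1. These splits divide the same macrophages and UMIs, so the subset ratios are not independent of each other or of the ratio over all macrophages.

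**Figure D5:**
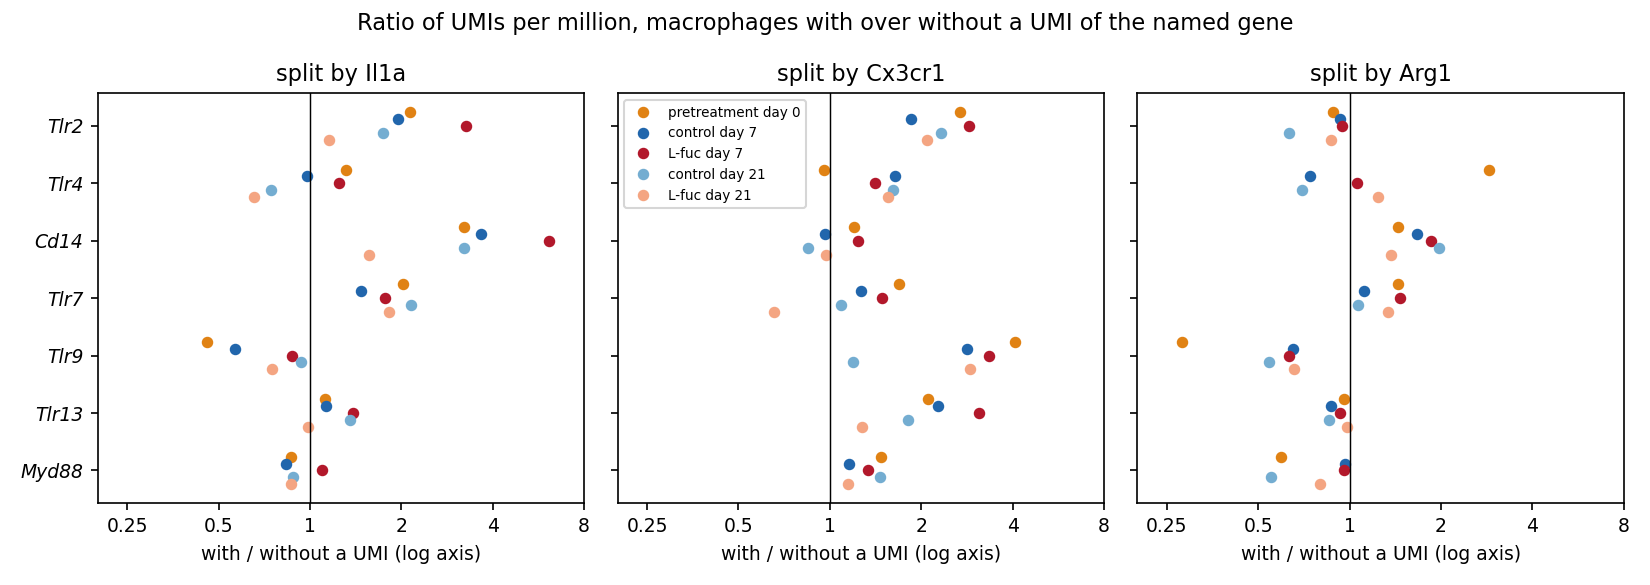
Ratio of the level in macrophages with a UMI of Il1a, Cx3cr1 or Arg1 to the level in macrophages without, for the 7 genes, 1 point per library, on a log axis. Cd14 is above 1 with Il1a in all 5 libraries (1.559 to 6.136), and Tlr9 is above 1 with Cx3cr1 (1.189 to 4.079) and below 1 with Arg1 (0.2805 to 0.656).

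Tlr2 and Cd14 were found in the same macrophages more often than the product of their shares gives. In macrophages thinned to 1000 UMIs, 26, 54, 62, 33 and 29 barcodes held both, against products of 15.22, 38.49, 20.94, 22.24 and 12.75 barcodes, from pretreatment day 0 to L-fuc day 21. Pairs with Tlr4 were too few to describe.

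The pattern of each member over the 15 profiles (5 libraries by 3 compartments) was compared with that of 13228 genes by Pearson's r of log2(CPM + 1), as a description, since profiles of a library share its cells and free RNA. Tlr2 was near Clec12a (0.9957) and P2ry6 (0.9951), and Cd14 was most like Slc16a3 (0.9954), Nlrp3 (0.9946) and Lmo2 (0.9937). Tlr7 was nearest to Evi2a (0.9948), Pirb (0.9936) and Themis2 (0.993), Tlr9 to Tmem51 (0.9911), Rmi1 (0.9884) and Slc29a3 (0.988), and Tlr13 to Cacna1d (0.9881), Dapk1 (0.9876) and Sh3tc1 (0.9876). Tlr4 had the lowest best match, with Tlr8 at 0.9656, Clic4 at 0.9498 and Scamp2 at 0.9487, and Myd88 lay near Rap1b (0.9874), Nfil3 (0.9868) and Mansc1 (0.9848). Among the members themselves Tlr2 and Cd14 were most alike (0.9787), and Tlr4 and Cd14 least (0.7901).

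Around the members, 49 other genes of the pathway were followed in macrophages. At day 7, 4 were at least 1.5-fold higher in L-fuc and 3 lower, 39 lay within 1.5-fold and 3 (Tlr5, Tlr11 and Sarm1) had fewer than 20 UMIs, beside 21.6% of all genes past the limit. Among the other receptors, Tlr1, a partner of TLR2, was at 1.627 (1.341 to 1.981) and Tlr8, an RNA receptor, at 0.553 (0.4247 to 0.7181). Tlr12 was at 1.403, Tlr6 at 0.9797 and Tlr3, a receptor for double-stranded RNA that does not use MYD88, at 0.7913. The other receptors thus lay on both sides of even.

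Of the chaperones and co-receptors, Lbp, which carries lipopolysaccharide to CD14, was at 10.59 (3.391 to 53.38), but on 43 UMIs against 3, and 29 of the 43 were in 1 barcode. Cd36, a scavenger receptor, was at 0.4741. Tirap, the adaptor that bridges MYD88 to TLR2 and TLR4, was at 0.6095, and Ticam1 and Ticam2, of the MYD88-independent branch, at 0.9217 and 0.7332. All 13 kinases and ligases lay within 1.5-fold, from Tbk1 (0.7922) and Tab1 (0.7846) to Traf6 (1.172) and Ikbkg (1.112), as did all 5 transcription factors, among them Irf7 at 1.324, Irf5 at 1.146 and Rela at 0.9413. Sigirr, an inhibitor of the pathway, was at 1.954 (1.44 to 2.684), beside Tnfaip3 at 1.128 and Tollip at 0.7391. Of the induced genes Il12b, a subunit of IL-12, was at 2.438 (2.051 to 2.91), with Il6 at 1.271, Cxcl2 at 0.9077 and Tnf at 0.8966. The 7 genes past the limit were thus receptors, co-receptors, an adaptor, an inhibitor and a cytokine.

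At day 21, 2 of the 49 were at least 1.5-fold higher and 1 lower, while 42 lay within 1.5-fold and 4 had fewer than 20 UMIs. Of all genes tested, 10.5% were higher and 14.5% past the limit in either direction. The higher ones were Cd36 at 3.267 and the chaperone Hsp90b1 at 1.617. The lower one was the chemokine Ccl4 at 0.6379, named after its value was seen. The other receptors were near even, with Tlr1 at 1.141, Tlr8 at 1.148, Tlr3 at 1.046, Tlr6 at 0.8939 and Tlr12 at 0.7505. Tlr3 was the receptor whose place was opposite to that of the members: it was at 9.682, 11.85, 13.49, 20.2 and 18.94 CPM in tumor barcodes and at 5.846, 7.205, 5.701, 8.178 and 8.557 CPM in macrophages, from pretreatment day 0 to L-fuc day 21.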

How the data were processed

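Single-cell gene expression was measured in 5 pooled libraries, 1 per condition, with the groups taken from the sample labels. The authors deposited raw UMI counts per gene and cell barcode, made with Cell Ranger on mm10 (7.1.0 in the file headers and 3.0 in the submitters' notes, which also name Seurat 4.0); how intronic reads were counted is not given in the sources used here. The 5 T cell receptor libraries were not used here. The members, lists and splits were chosen with earlier results of these data known.

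Barcodes were filtered and gated as described in the report, without removing doublets; no authors' cell annotation was used. UMIs of each gene were summed per library and compartment and divided by the summed UMIs of all genes. Levels carry exact Poisson intervals, shares exact Clopper-Pearson intervals and ratios exact conditional intervals, all at 95%. A ratio was compared with the limit where both groups together held at least 20 UMIs. For the lower bound of a ratio against a count of 0, that count was read as 3 UMIs. The ratio calls and intervals were tried on simulated counts that held counting error only. Such counts cannot show how the intervals fare with UMIs clumped in few barcodes or with differences between pools. The genes named were the 7 members, within each class of the pathway list the 2 highest and 2 lowest day 7 ratios and every Toll-like receptor, and for each member the 3 genes of nearest pattern with at least 200 UMIs, of which 1 is not reported here. Gates used at least 2 UMIs for T cells and dendritic cells, 10 for neutrophils and 3 for the other classes, and a class needed 50 barcodes. Analyses used scanpy 1.11.5 (Scrublet, as an alternative), scipy 1.17.1, pandas 2.3.3 and numpy 2.4.6 under Python 3.11.15. The alternatives were other gates, filters, thinning, scaling, limits, doublet removal and leaving out barcodes with markers of another compartment.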

Additional observations from a re-analysis of the deposited data

Results flagged for a closer look

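For 5 pairs of values the L-fuc to control ratio lay on opposite sides of 1 at day 7 and at day 21, with both intervals clear of 1. Pairs on opposite sides with an interval that spans 1 are not listed here. There was 1 library behind each group, and the difference between the days was not tested. In macrophages Tlr2 was at 1.092 at day 7 and 0.8289 at day 21, Tlr4 at 0.7697 and 1.309, and Tlr13 at 0.6971 and 1.578. Over 10 other settings the day 7 ratio of Tlr2 lay between 0.83 and 1.202, and above 1 in 8 of them. The ratios of Tlr4 and Tlr13 kept their side of 1 in all 10 on both days. In the other Ptprc-positive barcodes Cd14 was at 1.338 and 0.2707, and Myd88 at 2.015 and 0.5385. The Cd14 ratio at day 7 turned to 0.7937 once Sox10-positive barcodes were left out, so it was then below 1 on both days.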

How the results depend on the processing

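No paired analysis was possible because each condition had 1 library, and for the same reason no library could be left out. The counts of members past the limit were recomputed 230 times over 18 comparisons: 195 stayed within 1.5 times the reported count and 35 did not, while of 1323 ratios 1060 stayed inside their counting interval, 260 left it and 3 that were past the limit changed direction. Ratios against groups without UMIs gave no value as a mean of barcodes, after thinning or after scaling. With ratios inside the limit counted too, 73 of the 1323 lay on the other side of 1 from the reported ratio, among them macrophages over other Ptprc-positive barcodes at control day 21 after thinning for Cd14 (0.4885), Tlr7 (0.4787) and Myd88 (0.5983). The 3 past the limit that changed direction were the day 7 tumor ratios of Cd14 (1.126), Tlr7 (1.027) and Tlr13 (1.027) after thinning. Those of Tlr7 and Tlr13 were near even and rested on too few UMIs to give a direction. For L-fuc against control macrophages at day 7 the count of 0 became 3 without barcodes with markers of another compartment, as a mean of barcodes and after thinning, and 1 with Scrublet at 0.8% per 1000 barcodes, all lower. Scrublet at that rate and the removal of Sox10-positive barcodes were chosen after seeing the data. Among the alternatives, the share of all genes past the limit was computed only for that removal at day 7, for genes lower in L-fuc. At day 21 the count of 1 became 2 as a mean of barcodes or after thinning and 0 at a 2-fold limit. For tumor barcodes the day 7 count of 4 became 2 without mixed barcodes or at 2-fold and 1 as a mean of barcodes or after thinning. The day 21 tumor count of 1 became 2 with a C1q gate of 20 or as a mean of barcodes (1 in each direction), 0 with 2 Sox10 UMIs, after thinning or at 2-fold, and 5 with no minimum. In other Ptprc-positive barcodes the count of 3 at day 7 became 1 at 2-fold, and without Sox10-positive barcodes none of these 3 passed while 2 others (Tlr4 and Tlr9) were lower, and the count of 3 at day 21 became 1 after thinning or at 2-fold. Control day 7 against day 0 went from 1 to 0 (Scrublet at 0.8%, without mixed barcodes, after thinning, at 2-fold), 2 (mean of barcodes, both higher where the reported 1 was lower), 5 (C1q gate of 5) and 6 (scaled to the median gene). Control day 21 against day 7 went from 3 to 1 (without mixed barcodes, at 2-fold), 5 (scaled to the median gene) and 6 (C1q gate of 5). After thinning, macrophages against other Ptprc-positive barcodes at day 0 went from 6 to 2, and scaling to the median gene took control day 21 from 3 to 6. Against tumor barcodes thinning took the count from 7 to 3 at day 0 and to 4 at L-fuc day 21. Members with fewer than 20 UMIs left after thinning were not counted. The ratios to tumor barcodes that could be computed stayed at 2.732 or more at day 0 and 2.25 or more at L-fuc day 21 in every setting. The pathway count of 7 at day 7 became 3 at 2-fold, and that of 3 at day 21 became 13 as a mean of barcodes, 11 after thinning, 1 at 2-fold and 7 with no minimum. Over 10 settings the day 7 macrophage ratio lay between 0.5122 and 0.7548 for Cd14, 0.4106 and 0.8923 for Tlr4 and 0.3841 and 0.7887 for Tlr13, and the day 21 ratio of Tlr13 between 1.541 and 1.895. Depth limits the low members most: Tlr4 had 64 to 151 UMIs in the macrophages of a library.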
